A study of Mus musculus with 8 samples.

Results

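Open chromatin inside genes, away from their start sites, was described from ATAC-seq of mouse brown adipose tissue (BAT). The Tn5 transposase cuts DNA and adds sequencing adapters mainly between nucleosomes, and accessible sites thus collect reads. The authors' peak list holds 32173 summits, each the highest point of a peak. Intronic summits were taken as those in an intron of a RefSeq mRNA and in no exon, more than 5 kb and at most 50 kb from the nearest mRNA transcription start site (TSS), on chromosomes 1 to 19 of mm10. There were 5607 of them, 17.4% of the list (95% Wilson interval 17.0 to 17.8%). They made up 43.2% of the 12992 summits that lay in introns at any distance. Of the other intronic summits, 5494 were within 5 kb of a TSS and 1891 were beyond 50 kb.

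The list came from 4 libraries, 2 of WT mice and 2 of Dot1L-BKO mice, all on chow, 12 weeks old and kept at 4°C for 4 hr before the tissue was taken. In the Dot1L-BKO mice, a floxed Dot1l gene was deleted by Cre driven by the Ucp1 promoter, so that the deletion was limited to Ucp1+ cells, while the WT mice were floxed littermates. The list gives 1 position and 1 score per peak and no value per library. Its name sets both WT libraries against both Dot1L-BKO libraries, and their roles in MACS2 are not stated. If the Dot1L-BKO libraries were the control, a score would measure WT signal over Dot1L-BKO signal rather than accessibility in the tissue of both genotypes, and sites equally open in both could be missing. Read depth, replicate error and a comparison of the genotypes could therefore not be had from it, and every value below describes the list as a whole. The score is the −log10 of the q-value from MACS2, so that 2 stands for a q-value of 0.01. Intervals are Wilson intervals over counts and cover counting error only, and neighbouring summits in 1 gene are not independent.

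Introns often hold enhancers, short stretches where transcription factors bind and from which they act on a promoter at a distance. In brown fat, such sites bring together factors of fat cell identity, among them EBF, C/EBP and nuclear receptors such as PPARγ, with factors that answer cold and adrenergic signals through cAMP. Accessibility marks where factors can bind, but it does not by itself show enhancer activity or name the gene that is acted on. Host gene below means the gene whose intron holds the summit.

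The windows below reach 50 bp to each side of an intronic summit and are shown with coordinates of mm10, read from the GRCm38 assembly in RefSeq. The first 3 are the highest-scoring intronic summits of genes central to heat production and fat breakdown. Capitals mark motif matches on either strand, and windows without capitals held none of the 18 motifs searched.

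Ucp1 intron 5, chr8:83297458-83297558, plus strand: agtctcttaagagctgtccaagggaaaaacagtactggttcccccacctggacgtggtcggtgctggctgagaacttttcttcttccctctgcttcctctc
Ppargc1a intron 2, chr5:51545750-51545850, plus strand: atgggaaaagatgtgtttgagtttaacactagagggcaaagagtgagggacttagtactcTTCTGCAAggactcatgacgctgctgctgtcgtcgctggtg
Mgll intron 2, chr6:88732288-88732388, plus strand: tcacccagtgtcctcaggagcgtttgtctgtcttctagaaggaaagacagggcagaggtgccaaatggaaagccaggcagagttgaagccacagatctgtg

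The next 5 show the motifs that the results below turn on. In order, the capitals mark an EBF match, an AP-1 and a C/EBP match, a C/EBP match, a cAMP response element (CRE), and a DR1 match, the paired half-sites read by PPARγ with RXR.

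Tmem184b intron 2, chr15:79377781-79377881, plus strand: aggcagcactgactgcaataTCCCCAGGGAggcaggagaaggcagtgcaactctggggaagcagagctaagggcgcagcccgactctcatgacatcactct
Rapgef1 intron 1, chr2:29624809-29624909, plus strand: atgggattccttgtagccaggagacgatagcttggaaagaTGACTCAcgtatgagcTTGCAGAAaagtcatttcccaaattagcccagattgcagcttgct
Dagla intron 1, chr19:10297146-10297246, plus strand: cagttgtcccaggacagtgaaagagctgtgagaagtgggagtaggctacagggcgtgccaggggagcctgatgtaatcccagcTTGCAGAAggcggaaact
Prdm16 intron 1, chr4:154603726-154603826, plus strand: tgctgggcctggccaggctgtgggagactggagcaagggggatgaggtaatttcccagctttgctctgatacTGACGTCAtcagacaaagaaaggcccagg
Gse1 intron 1, chr8:120500668-120500768, plus strand: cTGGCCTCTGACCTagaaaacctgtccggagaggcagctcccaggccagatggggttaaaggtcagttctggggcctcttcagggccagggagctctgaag

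The last 2 are shown because the summit lies in a tandem repeat, a short unit copied head to tail.

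Acsl1 intron 1, chr8:46482251-46482351, plus strand: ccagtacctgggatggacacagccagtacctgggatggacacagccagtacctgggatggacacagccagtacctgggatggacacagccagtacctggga
Per2 intron 19, chr1:91422241-91422341, plus strand: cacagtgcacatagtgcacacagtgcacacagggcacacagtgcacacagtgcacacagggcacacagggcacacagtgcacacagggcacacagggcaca

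Intronic summits were more frequent per base than intergenic ones at the same distances. The sequence that met the rule, called eligible below, was 401 Mb, or 16.7% of the 2396 Mb of chromosomes 1 to 19 outside runs of N. It held 14.0 summits per Mb. Intergenic sequence 5 to 50 kb from a TSS held 4276 summits in 413 Mb, or 10.3 per Mb, a ratio of 1.35. All summits of these chromosomes averaged 13.2 per Mb, and the sequence within 1 kb of a TSS held 237 per Mb. The excess over intergenic sequence was in summits of low score. At scores of at least 5 the ratio was 1.14, and at scores of at least 10 it was 0.969, below 1.

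The density fell with distance. It was 20.2 summits per Mb at 5 to 10 kb from the nearest TSS, 15.4 at 10 to 20 kb, 12.7 at 20 to 30 kb, 9.82 at 30 to 40 kb and 8.45 at 40 to 50 kb. Intergenic density fell from 12.5 to 7.96 per Mb over the same bins, so that intronic and intergenic values were far apart near the TSS and close at 30 to 50 kb. The median distance of the intronic summits was 15929 bp. At the limits of the rule, the 90 summits between 5000 and 5250 bp had a median score of 3.47, and the 97 between 4750 and 5000 bp, just outside, had 4.16. The 107 between 47500 and 50000 bp had 4.20, and the 108 between 50000 and 52500 bp had 4.16.

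**Figure D1:**
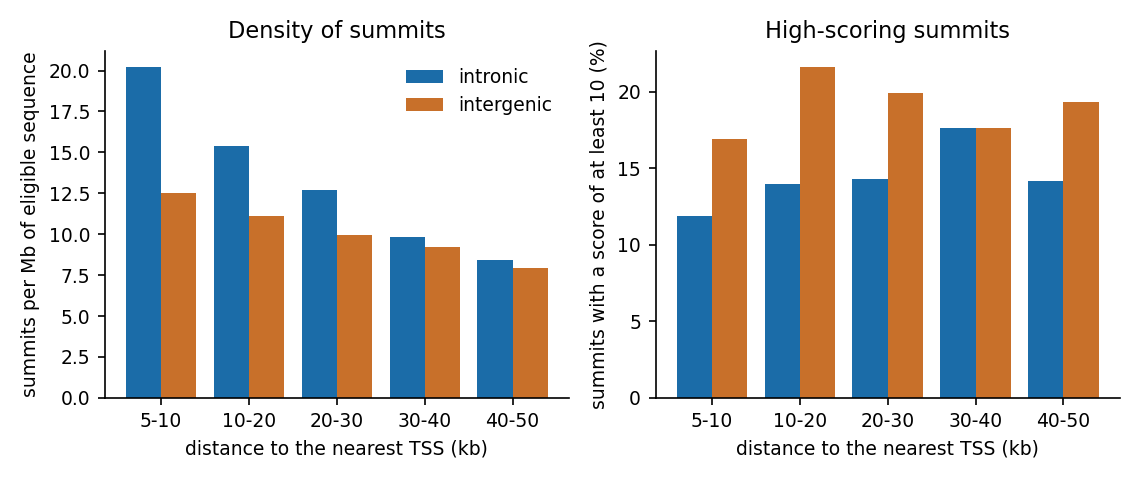
Intronic and intergenic summits by distance to the nearest TSS in kb. The left bars give summits per Mb of eligible sequence, which fell from 20.2 to 8.45 in introns, and the right bars give the percentage scoring 10 or more, which ranged from 11.9 to 17.6% in introns and was at or below the intergenic share in each bin.

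Scores of intronic summits were low for the list, of which 23.5% scored 10 or more. Their median was 4.16 (quartiles 2.69 and 6.53), against 4.61 (2.92 and 8.27) for intergenic summits 5 to 50 kb from a TSS and 8.65 (4.16 and 17.4) for the 10271 summits within 1 kb of a TSS. A score of at least 10 was reached by 778 intronic summits, or 13.9%. The same share was 19.3% (18.2 to 20.6%) of intergenic summits and 42.9% (41.9 to 43.9%) of those within 1 kb of a TSS. A score of at least 20 was reached by 237 intronic summits, or 4.23%, against 6.81% of intergenic summits and 9.67% of the whole list. Scores came in steps. The intronic summits had 820 distinct values, and the most common, 4.16, was shared by 408 of them (7.28%), so that small differences between low scores carry little.

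**Figure D2:**
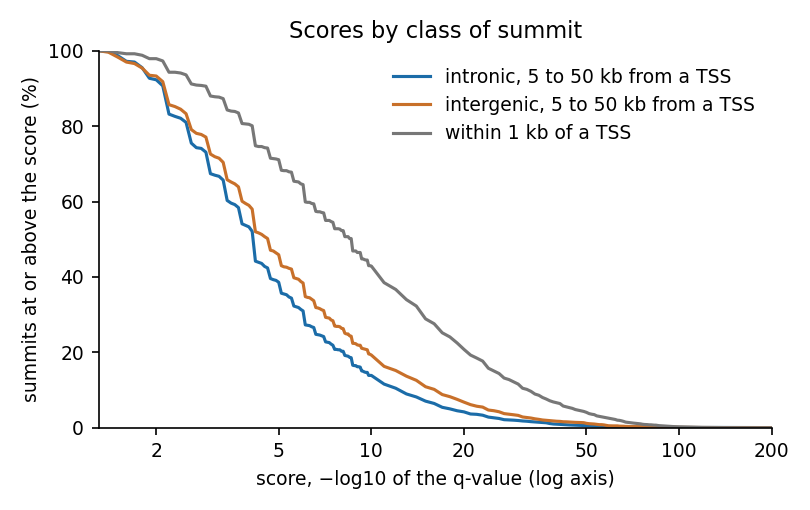
Share of summits at or above each score, with the score (−log10 of the q-value) on a log axis. The curve of intronic summits lies below that of intergenic summits at the same distances for most of its course, and up to a score of 100 both lie below the curve of summits within 1 kb of a TSS, of which 42.9% reach a score of 10. At a score of 120 both lie above it (0.107 and 0.0935% against 0.0584%).

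The intronic summits fell in 2601 host genes, 18.1% of the 14348 genes with eligible sequence. Of these hosts, 1491 (57.3%) held 1 summit and 490 held 2. At the other end, 247 hosts (9.50%) held 5 or more and together had 34.6% of the 5741 pairs of summit and host, and 54 held 10 or more. A summit had 1 host in 5574 cases. Another 5 summits each lay in introns shared by 10 or more genes of a cluster and gave 36 of the host genes. Where a host held several summits, the median gap from 1 to the next was 2906 bp, and 63.5% of gaps were at most 5 kb.

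Septin9, which codes for a GTPase of the cytoskeleton, held the most, with 39 summits in 134 kb of eligible sequence and a highest score of 20.9. Ergic1, a protein of the path between endoplasmic reticulum and Golgi, held 29, with a highest score of 51.9. Mgll and Acsl1 followed with 26 each. Mgll codes for monoacylglycerol lipase, the last step of fat breakdown, and Acsl1 for an enzyme that joins long-chain fatty acids to coenzyme A. Zmiz1, a transcriptional coregulator, held 25, and Hspg2, which codes for the basement membrane protein perlecan, held 22. Dagla, a diacylglycerol lipase, held 21. Rapgef1, Gse1 and Gmpr held 19 each. Tmem184b and Pmepa1 held 17 each, and Cbfa2t3, which codes for a corepressor, held 15.

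Counts rose with the amount of eligible sequence, and the order by density was another. Among hosts with 5 or more summits, Zbtb7a had the highest density, 91.9 per 100 kb, from 5 summits in 5.44 kb. Klf15, a transcription factor of fat and muscle metabolism, had 62.6 per 100 kb, from 5 summits of which the highest scored 3.83. Of the 15 genes with the most summits, Gmpr (58.2 per 100 kb), Acsl1 (55.9) and Tmem184b were also among the 15 densest. Septin9 had 29.2 per 100 kb.

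**Figure D3:**
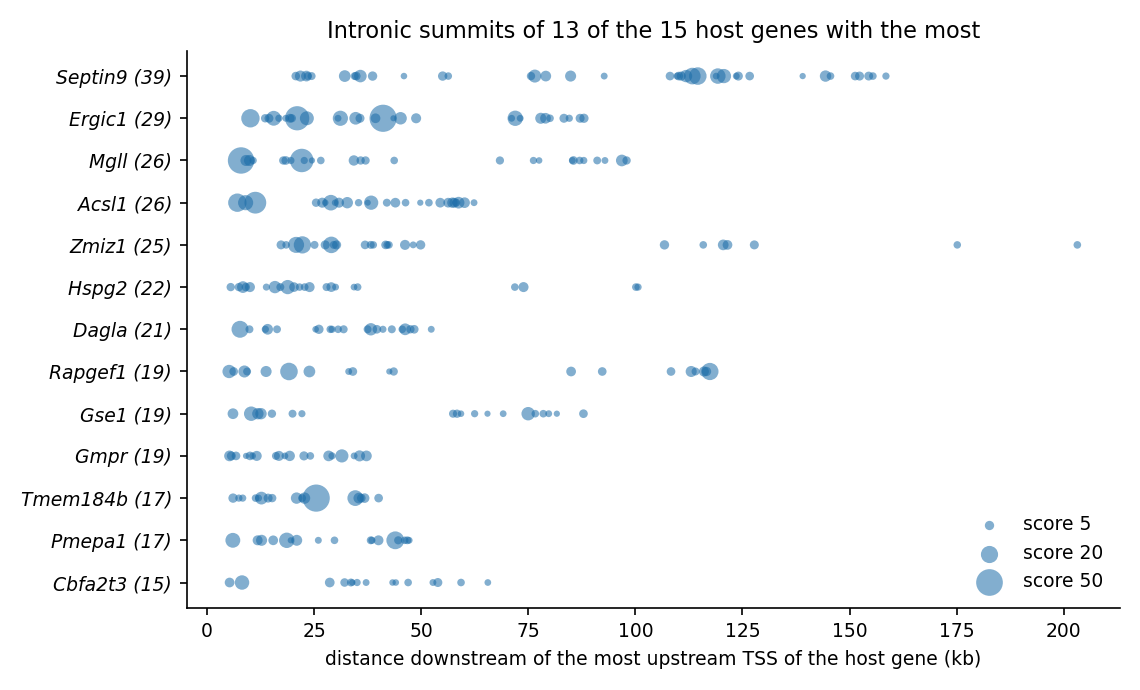
Intronic summits of 13 of the 15 host genes with the most, placed by distance in kb downstream of the most upstream TSS of the gene, with the point area rising with the score and the number of summits in brackets. The points form runs a few kb apart with gaps between. These gaps partly follow the sequence left out by the rule, in exons, within 5 kb of a TSS and beyond 50 kb from every TSS. The largest points are in Ergic1, Mgll and Tmem184b.

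In Acsl1, 5 of the 26 summits scored above 10. Intron 1 held 32.9, 23.1 and 15.3 at 7.06 to 11.3 kb from the most upstream TSS, intron 2 held 16.4 and intron 4 held 13.4. The other 21 summits had scores from 1.41 to 8.65. Acsl1 also had a promoter summit, one within 1 kb of a TSS of the gene, which scored 90.5. In Mgll, the scores of 49.0 and 38.4 stood apart, both in intron 2 at 7.93 and 22.1 kb from the most upstream TSS. The other 24 summits of Mgll scored at most 8.65, and its promoter summit scored 5.55. Tmem184b likewise had 1 summit of 51.9, in intron 2, and 16 others of at most 16.7, beside a promoter score of 8.07. The summit of 51.9 is 231 bp from the start of another annotated transcript of Tmem184b that is not among the mRNAs of the rule, and the summit of 51.9 in Ergic1 is 878 bp from such a start.

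Intron 1 held summits in proportion to its sequence. It held 28.5% of the pairs (27.4 to 29.7%), against 29.2% of eligible bases. The median score was 4.16 in intron 1, 4.20 in intron 2 and 4.04 in later introns, and scores of at least 10 made up 15.3, 16.7 and 12.6%. The nearest TSS belonged to the host gene for 73.4% of pairs (72.2 to 74.5%), below the 79.5% of eligible bases. The remainder lay nearer to a TSS of another gene. Within 200 bp of an intron edge were 873 summits (15.6%). A TSS of any annotated transcript, noncoding and predicted ones included, was within 1 kb of 344 summits (6.14%), which had a median score of 4.92 against 4.16 for the rest. Of intergenic summits at the same distances it was 12.6%. Curated enhancer records of RefSeq covered 34 of the intronic summits (0.606%) and 0.725% of the intergenic ones, from 1006 records on these chromosomes.

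Host genes had a promoter summit more often than other genes. Of the 2601 hosts, 1791 (68.9%, 67.1 to 70.6%) had one, against 5744 (48.9%, 48.0 to 49.8%) of the 11747 genes with eligible sequence and no intronic summit. The order held in each of 5 ranges of eligible sequence, from 82.4 against 47.8% in genes with up to 5 kb to 54.3 against 34.9% in genes with over 100 kb. The share was 64.5% (62.0 to 66.8%) for hosts of 1 intronic summit, 72.9% (69.8 to 75.7%) for hosts of 2 to 4, and 81.4% (76.1 to 85.7%) for hosts of 5 or more. In 556 of the 1791 (31.0%) the best intronic score was above the promoter score. The median best intronic score was 4.15 in hosts of 1, 6.53 in hosts of 2 to 4 and 13.8 in hosts of 5 or more, beside median promoter scores of 10.1, 9.55 and 10.5. The best of several scores rises with their number.

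Genes of the thermogenic program often held intronic summits. Of 25 genes of this list with eligible sequence, 15 did (60.0%, 40.7 to 76.6%), with 55 summits in 1.17 Mb, or 47.0 per Mb (30.8 without Kcnk3 and Prdm16). Over all genes the share was 18.1% and the density 14.1 per Mb. Genes with more eligible sequence are hosts more often, and a share weighted to the sizes of the 25 genes came to 22.3%. Density tended to be lower in genes with more eligible sequence. It was 39.1 per Mb up to 5 kb, 24.6 at 5 to 20 kb, 12.4 at 20 to 50 kb, 12.9 at 50 to 100 kb and 9.55 over 100 kb. A list's density thus depends on the sizes of its genes. Ucp1, the uncoupling protein that makes heat in brown fat mitochondria, had 2.51 kb of eligible sequence and 1 summit, in intron 5, 7160 bp from its TSS, which scored 26.6. Its promoter summit scored 33.7. Ppargc1a, the coactivator that raises mitochondrial and thermogenic gene expression on cold, held 4 summits in intron 2. The highest scored 27.4, at 8121 bp from the TSS, above the promoter score of 20.8, and the other 3 scored 3.32 to 4.16.

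Kcnk3, a potassium channel of brown fat, had 13 summits along its 33291 bp intron 1, with scores from 2.15 to 11.5 and a promoter score of 36.4. Prdm16, a coregulator that sets brown fat cell identity, held 9, of which the highest scored 6.53. They lay in 2 runs, 3 in intron 1 and 6 in introns 10 to 16, more than 250 kb apart. Most of the sequence between these runs was not eligible, because the rule leaves out introns beyond 50 kb from every TSS. The gap thus largely follows the rule, and whether summits lie within it was not tested. Ppargc1b, a relative of Ppargc1a, held 7 in intron 1, of which 4 scored above 10. Cidea, a lipid droplet protein of brown fat, held 5, with 8.65 as the highest score. Thra, a thyroid hormone receptor, held 4 (at most 7.47) and Esrrg, an estrogen-related receptor, held 3 (at most 3.75). Ppara and Zfp516, both transcription factors, held 2 each. Aifm2, Ebf2, Nrf1, Otop1 and Zfp423 held 1 each, with scores of 4.20, 2.53, 10.1, 4.16 and 8.65. Dio2, Ehmt1, Esrra, Esrrb, Irf4, Lhx8, Slc27a2, Tbx15, Tfam and Thrb held none, although Esrra had a promoter summit of 59.5, and Esrrb, Thrb and Ehmt1 had more than 60 kb of eligible sequence each.

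Lipid genes had the highest density of the 12 lists. Of 35 genes of lipid uptake, synthesis and breakdown, 24 were hosts (68.6%, 52.0 to 81.4%, with a size-weighted share of 18.3%), and they held 133 summits in 0.940 Mb, or 141 per Mb. Without Acsl1 and Mgll the density was 99.2 per Mb. Lpin1, a phosphatidate phosphatase, held 12 summits, and Hadha, a subunit of the mitochondrial β-oxidation enzyme, held 9. Among insulin signalling genes, 16 of 27 were hosts (59.3%) with 38.5 summits per Mb, or 13.2 without the 2 genes with the most. Mtor, the growth kinase, held 8 summits, of which the highest scored 35.0. Irs1 and Ptpn1 held 2 each.

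Adipocyte transcription factors were hosts in 13 of 21 genes (61.9%), with 50.1 summits per Mb, or 30.2 without the 2 genes with the most. These were Rxra, the partner of PPARγ, with 13 summits, and Nfic, a nuclear factor I gene, with 9. Nfix held 8. Pparg itself held none in 93.9 kb of eligible sequence, a gene singled out after its value was seen. Of clock genes, 7 of 16 were hosts (43.8%) with 37.1 summits per Mb, or 20.3 without the 2 genes with the most. Per2, a repressor of the clock, held 7 with scores up to 28.5. Cry2, another, held 4, of which 3 scored from 12.8 to 19.4. Arntl, which codes for BMAL1, held 4 with a highest score of 12.2, and Hlf held 3 with 13.8.

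The remaining lists of brown fat function lay closer to all genes in their shares of hosts and in density over all their genes. Of β-adrenergic and cAMP signalling genes, 12 of 33 were hosts (36.4%, size-weighted 25.5%). They held 21.0 summits per Mb, or 14.7 without the 2 genes with the most. Adcy3, an adenylyl cyclase, held 9, with 32.5 and 22.5 as the highest scores, and had no promoter summit. Prkar2b, a regulatory subunit of protein kinase A, held 5. Akap1, which anchors the kinase at mitochondria, and Sik3 held 4 each. Of chromatin modifiers and coregulators, 12 of 32 were hosts (37.5%, size-weighted 27.2%). Their 23.8 summits per Mb fell to 12.3 without the 2 genes with the most. Hdac5 held 5, and Hdac7 and Mllt1 held 4 each. Dot1l, the gene deleted in the Dot1L-BKO mice and named for that reason, held 3 summits, of which the highest scored 8.12, and the list cannot show from which genotype they came.

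The lists of other cell types of the tissue hold few genes, and their shares are set beside 18.1% of all genes. Of 18 endothelial genes, 9 were hosts (lower bound 29.0%, size-weighted 22.9%), with 22.7 summits per Mb, and 9 had a promoter summit. Without the 2 genes with the most, the density was 12.5 per Mb. Eng held 6, with 5.55 as the highest score, Pecam1 held 4, and Ets1 and Mecom held 2 each. Of 16 macrophage and leukocyte genes, 1 was a host (6.25%, 1.11 to 28.3%, size-weighted 22.5%), Spi1, whose summit scored 12.2. Of 15 skeletal muscle genes it was 1 (6.67%, 1.19 to 29.8%, size-weighted 18.5%), Ryr1, at 6.02. Of 17 fat progenitor and mural cell genes, 3 were hosts (17.6%, 6.19 to 41.0%), Cspg4, Pdgfrb and Twist2, and the Twist2 summit scored 38.4. Of 22 neuronal and Schwann cell genes, 3 were hosts (13.6%, 4.75 to 33.3%, size-weighted 29.8%), and 5 of their 7 summits lay in Mbp. The intervals of these 4 lists include the share of all genes, as well as the size-weighted share of each. Of the thermogenic list, 18 of 25 genes with eligible sequence had a promoter summit (72.0%), and Esrrb, Esrrg, Lhx8, Nrf1, Tbx15, Thra and Zfp423 had none. Nor had Zic1, which has no eligible sequence. Lhx8, Tbx15 and Zic1 are themselves genes of brown adipocytes. The 6 genes chosen as brown adipocyte markers were picked with earlier results known, and their promoter scores were 33.7 for Ucp1, 61.5 for Cidea, 20.8 for Ppargc1a, 8.65 for Prdm16, 12.5 for Ebf2 and 6.02 for Dio2. The tissue is a mixture, and fewer cells of a type and less open chromatin per cell cannot be told apart.

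**Figure D4:**
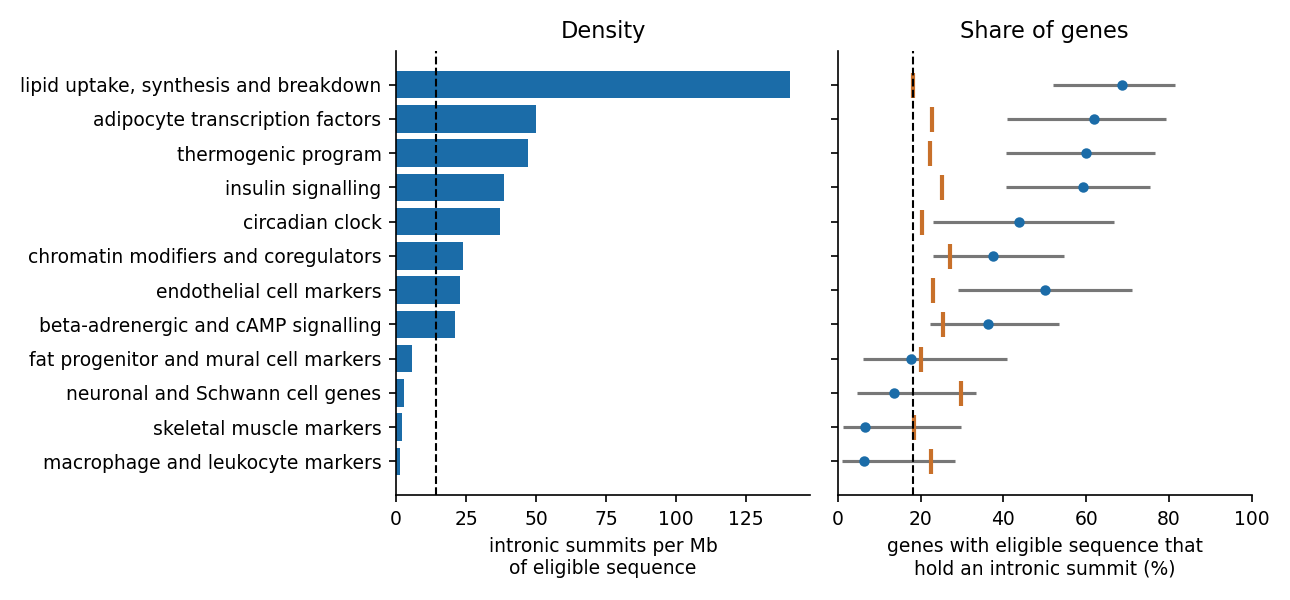
Intronic summits of 12 gene lists. The left bars give summits per Mb of eligible sequence and the right points give the share of genes that hold a summit with 95% Wilson intervals. Dashed lines mark all genes (14.1 per Mb and 18.1%) and orange ticks the share weighted to the sizes of the genes in the list. Lipid genes stand at 141 per Mb, and macrophage, muscle, neuronal and progenitor lists lie below the dashed line in the left panel.

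The sequence at intronic summits was richer in GC than introns at large. In windows of 100 bp to each side of the summit, the median GC content was 53.7%, the same as at intergenic summits, against 43.8% in all 1937266 windows of eligible intronic sequence and 62.2% within 1 kb of a TSS. CpG dinucleotides averaged 3.24 per window, against 1.80 in eligible windows and 14.2 within 1 kb of a TSS. Motif shares below are therefore set beside those of eligible windows weighted to the same GC content.

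C/EBP matches (TTGCNNAA on either strand) were in 582 windows, 10.4% (9.61 to 11.2%) against 5.30% of GC-weighted eligible windows, a ratio of 1.96. Without the weighting, eligible windows had 8.14%, and of windows at intergenic summits 5 to 50 kb from a TSS 13.4% held a match, above the intronic interval. The share was 7.17% (6.07 to 8.45%) for scores under 3 and 14.7% for scores from 5 to 10, and the intervals did not overlap. The highest summit of Ppargc1a, printed above, holds such a match within 20 bp of its centre. AP-1 matches (TGANTCA) were in 461 windows, 8.22% against 5.05%, with 8.56% at intergenic summits. EBF matches (TCCCNNGGGA) were in 95, 1.69% (1.39 to 2.07%) against 0.813%, a ratio of 2.08, with 1.61% at intergenic summits. The score of 51.9 in Tmem184b belongs to a window of this kind.

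Several rarer motifs had high ratios on small counts, while the DR1 had 1.35. The CRE (TGACGTCA), read by the factors that cAMP activates, was in 33 windows, 0.589% (0.419 to 0.825%) against 0.182%, with 0.748% at intergenic summits and 2.01% within 1 kb of a TSS. The glucocorticoid response element (GNACANNNTGTNC) was in 47 windows, 0.838% against 0.383%, with 0.819% at intergenic summits. The CTCF motif was in 91, 1.62% (1.32 to 1.99%) against 0.801%, and its share was higher at intergenic summits, 2.71%. The DR1 (AGGNCANAGGNCA) was in 45, 0.803% (0.600 to 1.07%) against 0.596%, with 0.585% at intergenic summits, and both shares lay just below the interval. The full nuclear factor I palindrome was in 4 windows, too few to rank.

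Several motifs were more frequent within 1 kb of a TSS than at intronic summits, the CRE among them. The ETS motif (CCGGAAGT) was in 0.232% of intronic windows, 0.216% of weighted eligible windows and 4.81% of windows within 1 kb of a TSS. The SP/KLF motif (GGGGCGGGG) was in 0.446% against 1.46%, a ratio of 0.306, and in 8.93% within 1 kb of a TSS. Without the weighting, eligible windows had 0.118% for ETS and 0.383% for SP/KLF, both below the intronic shares. The E-box CACGTG was in 202 intronic windows (3.15 to 4.12%), in 3.53% of weighted eligible windows and in 6.47% within 1 kb of a TSS. The NRF1 palindrome was in 2 intronic windows (0.0357%) and in 1.15% within 1 kb of a TSS. The E-box CAGCTG, in 16.0% of windows, had a ratio of 1.08. Of the 18 motifs, 17 had a ratio above 1 after weighting, several of them by a margin within the interval of the share. Without it, MEF2 (0.303 against 0.426%), IRF (1.39 against 2.95%) and RUNX (1.11 against 1.65%) lay below eligible windows, so that their direction rests on the weighting, as does that of SP/KLF.

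Matches also gathered at the summit itself, compared with flanks of the same regions. GC content was 50.3 to 52.0% in the 50-bp bins of these flanks and 53.5% at the centre, and no weighting was applied. From 50 bp before to 50 bp after the summit, the density was 6.15 times that 300 to 500 bp away for the CRE (20 matches), 2.46 times for EBF (59), 2.06 times for the glucocorticoid element (32), 1.95 times for CTCF (62), 1.80 times for AP-1 (283) and 1.77 times for C/EBP (347). The CRE had only 13 matches in the flanks. The values were 1.17 for DR1, 1.14 for the E-box CAGCTG, 1.00 for MEF2 and IRF and 0.463 for SP/KLF. Among the 1727 words of 7 bases with at least 100 counts at the centre, the AP-1 word TGACTCA had the highest ratio, 2.11. Next came AGCCACG (2.03), AAAGGTC (1.99) and GAGTCAC (1.85). AGGTCAC and AAGGTCA, which hold the nuclear receptor half-site AGGTCA, had 1.78 and 1.76, and CTTGGCA, which holds an NFI half-site, had 1.74. The longer estrogen-related receptor motif TCAAGGTCA, which holds AAGGTCA, had 1.26 from 17 matches at the centre.

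**Figure D5:**
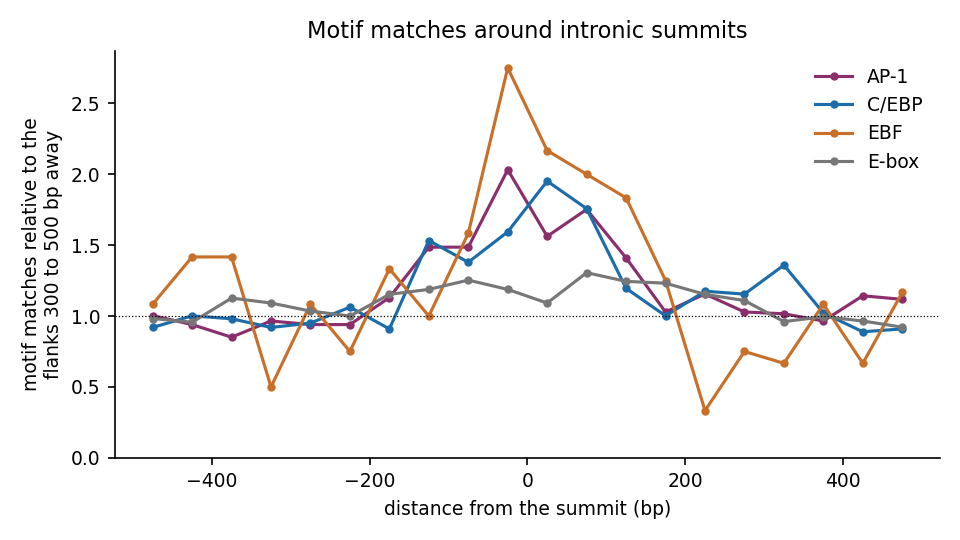
Motif matches in 50-bp bins around the intronic summits, divided by the mean of the bins 300 to 500 bp away. AP-1, C/EBP and EBF rise within about 150 bp of the summit, with EBF the noisiest because of its low counts (96 matches in the flanks), and the E-box CAGCTG rises least.

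Repeats set some of the summits apart. The summit base was soft-masked, meaning that the assembly marks it as repeat, in 669 of the 5607 (11.9%), against 29.0% of eligible bases. Short tandem repeats showed the opposite. The 50 bp to each side of a summit matched themselves at 80% identity or more after a shift of 2 to 50 bp in 420 intronic summits (7.49%, 6.83 to 8.21%), against 0.784% of eligible windows, a ratio of 9.56, or 2.61% after weighting to the same GC content. Intergenic summits had 5.07% and summits within 1 kb of a TSS 0.0584%. The median shift was 34.0 bp, and 110 of the 420 (26.2%) were soft-masked. How the authors treated reads that map to several places is not stated. The Acsl1 summit of 32.9 repeats at 22 bp with an identity of 100%, the Per2 summit of 22.3 at 27 bp with 95.9%, and the Rapgef1 summit of 20.9 at 17 bp with 95.2%. Left out together, the 420 summits took the share of hosts among all genes from 18.1 to 16.5% and left the thermogenic list at 60.0%.

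Several of the highest scores lay at sequence that matches the mitochondrial genome or at a group of related RNA genes. The summit of 11588, in Myo3a, lies in sequence that matches the mitochondrial genome over the whole 500 bp to each side, and those of 1158 in Zfp804b and 187 in Arhgef4 match it over 912 and 724 bp. Of the 7 summits above 100, 3 had such a match of at least 200 bp, against 0 of the 5600 at or below 100. Tex14 held 4 summits of 140, 110, 99.1 and 88.0, each within 63 bp of the start of 1 of the 4 U3 RNA genes (Rnu3b1 to Rnu3b4) in its intron 2. The summits of 246 in Smo, 85.9 in Tmem267 and 83.0 in Ranbp3l were soft-masked, and that of Smo was also a tandem repeat (38 bp, identity 84.1%). Cars2 (146), Ppp2r1b (94.9) and Nt5c2 (72.7) complete the 10 hosts with the highest scores. These scores are given as deposited, and the part of multi-mapped reads in them was not tested.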

How the data were processed

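ATAC-seq libraries of BAT nuclei were prepared separately from 2 WT and 2 Dot1L-BKO mice. Per the authors' methods, paired-end reads were placed on mm10 by BWA (Partek Flow), and MACS2 2.1.1 in its ATAC mode kept peaks at q-values up to 0.05 and fold enrichments of 2.0 or more. The deposited scores are −log10 q-values, 1 per summit. The list is named as WT libraries against Dot1L-BKO libraries. Which served as treatment or control, and how transposase offset, duplicates, multi-mapped and mitochondrial reads were handled, is not given in the sources used here. RNA-seq libraries were not analysed here.

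Summits were classed on RefSeq GRCm38.p6 (the same assembly as mm10) by NM transcripts. A summit in introns of several genes counted for each, and introns were numbered in the longest NM transcript. Named genes were the 15 hosts with the most summits, the 10 with the highest score, every thermogenic gene with eligible sequence, and the 4 hosts with the most summits of each other list. Of these, 2 genes are not reported here. Members, lists and the genes named were chosen with earlier results of these data known. Motifs were searched on both strands, may overlap each other, and were compared with all non-overlapping windows of the same length in eligible sequence, in GC bins of 2%. MEF2 and CTCF were searched as consensus words. Mitochondrial matches used blastn 2.17.0 on 500 bp to each side of a summit (e-value limit 1e-10). The tandem repeat measure was added after the data were seen. No hypothesis was tested, and no p-value was computed. Scripts for classes and motifs were tested on simulated data. Software was Python 3.11.15 with pandas 2.3.3, numpy 2.4.6, matplotlib 3.10.9 and scipy 1.17.1.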

Additional observations from a re-analysis of the deposited data

How the results depend on the processing

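No paired analysis was possible because values per library are not in the list, which also kept replicates from being left out in turn. Depth is unknown, so that an absent summit says nothing of closed chromatin. With scores of at least 5, there were 2164 intronic summits in 1391 host genes, 13.4% of the 16097 summits of the list with such a score, with a median score of 8.12 (-0.530 relative to intergenic summits, against -0.452 in the whole list), a density ratio of 1.14, 30.6% in intron 1 and 75.8% nearest to a TSS of the host. With scores of at least 10, these were 778, 639, 10.3% of 7569, 15.4, -1.02, 0.969, 31.1% and 75.3%. Leaving out exons of any annotated transcript gave a share of 16.5% of the list. Measuring to the TSS of any annotated transcript gave 16.7%, a density ratio of 1.67, 24.5% in intron 1 and 56.2% nearest to the host. From 10 to 50 kb, the values were 12.5%, 1.26, 25.7% and 70.7%. From 5 to 100 kb, the share was 20.9%, with 26.0% in intron 1 and 71.8% nearest to the host. Without soft-masked bases the density ratio was 1.23. Without tandem repeats, an alternative chosen after seeing the data, the share of the list was 16.8%. Counting intron 1 of any NM transcript gave 32.2%. The other 55 values recomputed for these summary results stayed within the counting interval, or within 1.5 times for counts. For single lists and motifs, 98 recomputed values moved beyond that and 162 did not. At scores of at least 10, hosts fell from 18.1 to 4.45% of all genes, from 15 to 5 of the 25 thermogenic genes, from 61.9 to 23.8% of adipocyte transcription factors, from 68.6 to 31.4% of lipid genes and from 59.3 to 14.8% of insulin signalling genes. The density ratio passed below 1 at scores of at least 10, and the difference in medians kept its sign in each alternative.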
